A study of Mus musculus with 56 samples.

Results

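Carboxylesterases are the subject here: the 10 genes Ces1c, Ces1d, Ces1e, Ces1f, Ces1g, Ces2a, Ces2c, Ces2e, Ces3a and Ces3b, out of 18 symbols that begin with Ces and a digit and 21888 gene symbols in the RNA-seq table. They were chosen by the measured FPKM of Ces3b, which was lower at days 21 and 45 after Cre than at day 0, so the values at those days are given as a description and without a test. All 10 reached the mean of 1 FPKM needed for testing, as did 11354 genes in all. FPKM is the number of sequenced fragments per kilobase of transcript, scaled to the depth of the library, and because it is given per length, levels of different genes can be set side by side.

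The study removed miR-122, the most abundant microRNA of the hepatocyte, from mouse liver and followed the transcripts that remained. All 14 livers carry the strain label 129Sv/J. Of these, 11 came from mice with loxP sites around miR-122: 3 uninjected mice (day 0, replicates A, B and C), 3 mice each at days 21 and 45 after an rAAV vector that expresses Cre under the Ef1a promoter, which is not specific to hepatocytes, and 1 mouse each at days 100 and 200. The other 3 livers came from mice with a germline knockout of miR-122 that received no vector (knockout A, B and C). Each library is 1 mouse, and the labels give neither age nor sex. Because day 0 mice received no vector, the injection and the loss of miR-122 cannot be told apart in these comparisons, nor can colony and genotype in that of the knockout. No uninjected floxed livers of later days had RNA-seq, so elapsed time and age cannot be told apart from the loss either.

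Carboxylesterases are serine hydrolases that sit mostly in the lumen of the endoplasmic reticulum, where a signal at their end holds them. They split ester bonds in drugs and toxins, and several also split triacylglycerol, diacylglycerol or cholesteryl esters, which ties them to the assembly of lipoproteins. The liver is their main site, the mouse has many more of them than humans because of repeated tandem duplication, and Ces1c lacks the retention signal and is secreted into plasma.

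In the small RNA libraries with the same day and replicate labels, miR-122 made up 73.3, 59.2 and 66.7% of microRNA reads at day 0, 12.5, 13.2 and 8.22% at day 21, and 0.908, 0.383 and 1.23% at day 45. It was 4.46% in the day 100 liver (95% Wilson interval 4.40 to 4.52%, which covers counting error only) and 19.1% (19.0 to 19.2%) in the day 200 liver. The RNA-seq libraries had an effective depth of 24100000 to 33400000 fragments in the knockout and 36800000 to 55700000 in the floxed mice, estimated from the smallest steps of the values.

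In 4 libraries (day 0 B, day 21 C, day 45 C and knockout C) the Y-linked transcripts Ddx3y, Eif2s3y, Kdm5d and Uty were all above 1 FPKM and Xist was between 0.023 and 0.133 FPKM. In the other 10, among them both late livers, Xist was 12.6 FPKM or more and those transcripts were near 0. Results are therefore given also from the 10 libraries without Y-linked transcripts. Knockout A and B stood apart: on log2(FPKM + 1) they correlated with each other at 0.986 and with the other libraries at 0.806 to 0.926, knockout C included. Knockout calls and counts are therefore given also without both, where 1 knockout liver is left and is assumed to vary like the other groups. These are also the only knockout libraries without Y-linked transcripts, so each of the alternative settings leaves either this pair or knockout C. Of the hepatocyte markers, Alb was listed at 0 in every library, and Trf, Serpina1a and Ahsg at 0 in some, although these are among the most abundant liver transcripts. Ttr, Apoa1, Apoa2, Tat, Cps1 and Hpd were present in all 14.

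The 10 genes lie in a pair of clusters on chromosome 8 (mm9, which is NCBIM37, GENCODE vM1 gene models). The first spans chr8:95544113-96059607 on the minus strand and holds Ces1c to Ces1g, and the other spans chr8:107257903-107674009 on the plus strand and holds the Ces2 and Ces3 genes. Ces3a (chr8:107572499-107582314) ends 25338 bases before Ces3b (chr8:107607653-107617829) begins, and each has 13 exons and a coding sequence of 1716 bases. The coding sequences of this pair are 95.3% identical, and 26.1% of all 50-base windows of the Ces3b transcript occur unchanged in another Ces transcript. Ces2c shares 69.0% of its windows with another Ces transcript, mainly with Ces2d-ps (97.8% coding identity), and Ces1c shares 13.4%. Ces3a shares 30.8%, and the remaining members share between 0.53% and 3.36%. How fragments that match several of these genes were divided is not stated, so the values of Ces3a, Ces3b and Ces2c are the least certain.

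Sequence just before the start site was available for 7 of the members (RefSeq, GRCm38.p6). Shown are the 120 bases before the start of the gene with the widest range between livers (Ces3b), of the gene that was higher than day 0 in every later group (Ces1g), and of a Ces2 gene that was lower at days 100 and 200 (Ces2a), each read 5′ to 3′ on the strand of the gene. Capitals mark matches, on either strand, to the TATA box TATAAA, the box motif CCAAT, the HNF1-type core GTTAAT or the nuclear receptor core AGGTCA.
Ces3b, chr8:105083635-105083754, plus strand: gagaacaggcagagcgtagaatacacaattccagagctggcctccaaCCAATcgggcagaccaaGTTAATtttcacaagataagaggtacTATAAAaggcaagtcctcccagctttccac
Ces1g, chr8:93337210-93337329, minus strand: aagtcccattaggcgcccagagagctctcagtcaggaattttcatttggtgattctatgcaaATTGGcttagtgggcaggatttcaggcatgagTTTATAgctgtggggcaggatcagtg
Ces2a, chr8:104733883-104734002, plus strand: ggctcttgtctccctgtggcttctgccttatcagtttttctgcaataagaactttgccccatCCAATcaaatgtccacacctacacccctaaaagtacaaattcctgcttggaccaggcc
Of 32851 start windows of this length, 6.34% hold TATAAA, 21.3% CCAAT, 3.0% GTTAAT and 6.91% AGGTCA. The Ces3b window holds the first 3, with TATAAA beginning 30 bases before the start.

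Ces3b had the widest range of the 10 genes, with its highest library 45.6 times its lowest. Its level was 218, 281 and 198 FPKM at day 0, 55.9, 56.7 and 97.3 at day 21, and 50.5, 22.3 and 30.5 at day 45. It was 6.16 FPKM in the day 100 liver, 19.2 in the day 200 liver, and 21.5, 15.8 and 52.8 in the knockout. Every later and every knockout liver lay below every day 0 liver, and the day 100 liver was the lowest of all. Its mean of 232 ± 43.5 FPKM (SD, n = 3) at day 0 stood against 70.0 ± 23.6 at day 21 and 34.4 ± 14.5 at day 45, which is 3.32- and 6.74-fold lower (log2 −1.75 and −2.78, SE 0.47 each). These values chose the genes and were not tested.

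The mice of days 100 and 200 and of the knockout were not used for that choice, although they are compared with the same day 0 mice. Because the members were also listed with earlier results of these data known, the tests are not independent of the choice. The mean FPKM of Ces3b was 18.3-fold lower at days 100 and 200 and 7.73-fold lower in the knockout. On the log2 scale of the fit Ces3b fell at days 100 and 200 (log2 −4.26, SE 0.52, 95% interval −5.40 to −3.13, limma adjusted p = 0.000169). That change was −3.51 without the day 100 liver and −5.01 without the day 200 liver. In the knockout Ces3b fell as well (log2 −3.08, SE 0.47, limma adjusted p = 0.000904). From the libraries without Y-linked transcripts the changes were −4.11 (limma adjusted p = 0.000407) and −3.42 (limma adjusted p = 0.000341). Without knockout A and B the knockout change was −2.10 and missed the threshold (limma adjusted p = 0.0561). In bulk liver, fewer hepatocytes and less RNA per hepatocyte cannot be told apart. With each library scaled to 6 hepatocyte markers Ces3b was still lower, by log2 −3.64 (limma adjusted p = 1.04e-05) at days 100 and 200 and −2.85 (limma adjusted p = 5.69e-05) in the knockout.

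Ces3a, the neighbour and closest relative of Ces3b, took another course. It was 599.5, 974.6 and 543 FPKM at day 0, 524, 453 and 791 at day 21, and 335, 343 and 665 at day 45. The days 100 and 200 livers had 351 and 330 FPKM, and the knockout livers 696, 586 and 651. As a group only the late livers lay below all day 0 livers, and the knockout livers lay within the range of day 0. Ces3a fell at days 100 and 200 (log2 −1.0, SE 0.34, limma adjusted p = 0.0389), with a change of −0.74 (limma adjusted p = 0.00705) in the libraries without Y-linked transcripts and −1.05 (limma adjusted p = 0.154) without the day 100 liver. The call was also lost without day 0 A, day 0 B or the day 200 liver and with scaling to hepatocyte markers, where the change was −0.38 (limma adjusted p = 0.371). In the knockout its change was −0.086 with a 95% interval of −0.74 to 0.57 (limma adjusted p = 0.839). For every 100 FPKM of Ces3a there were 28.8 to 36.4 FPKM of Ces3b at day 0, 10.7 to 12.5 at day 21, 4.58 to 15.1 at day 45, 1.76 and 5.83 at days 100 and 200, and 2.69 to 8.12 in the knockout.

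**Figure D1:**
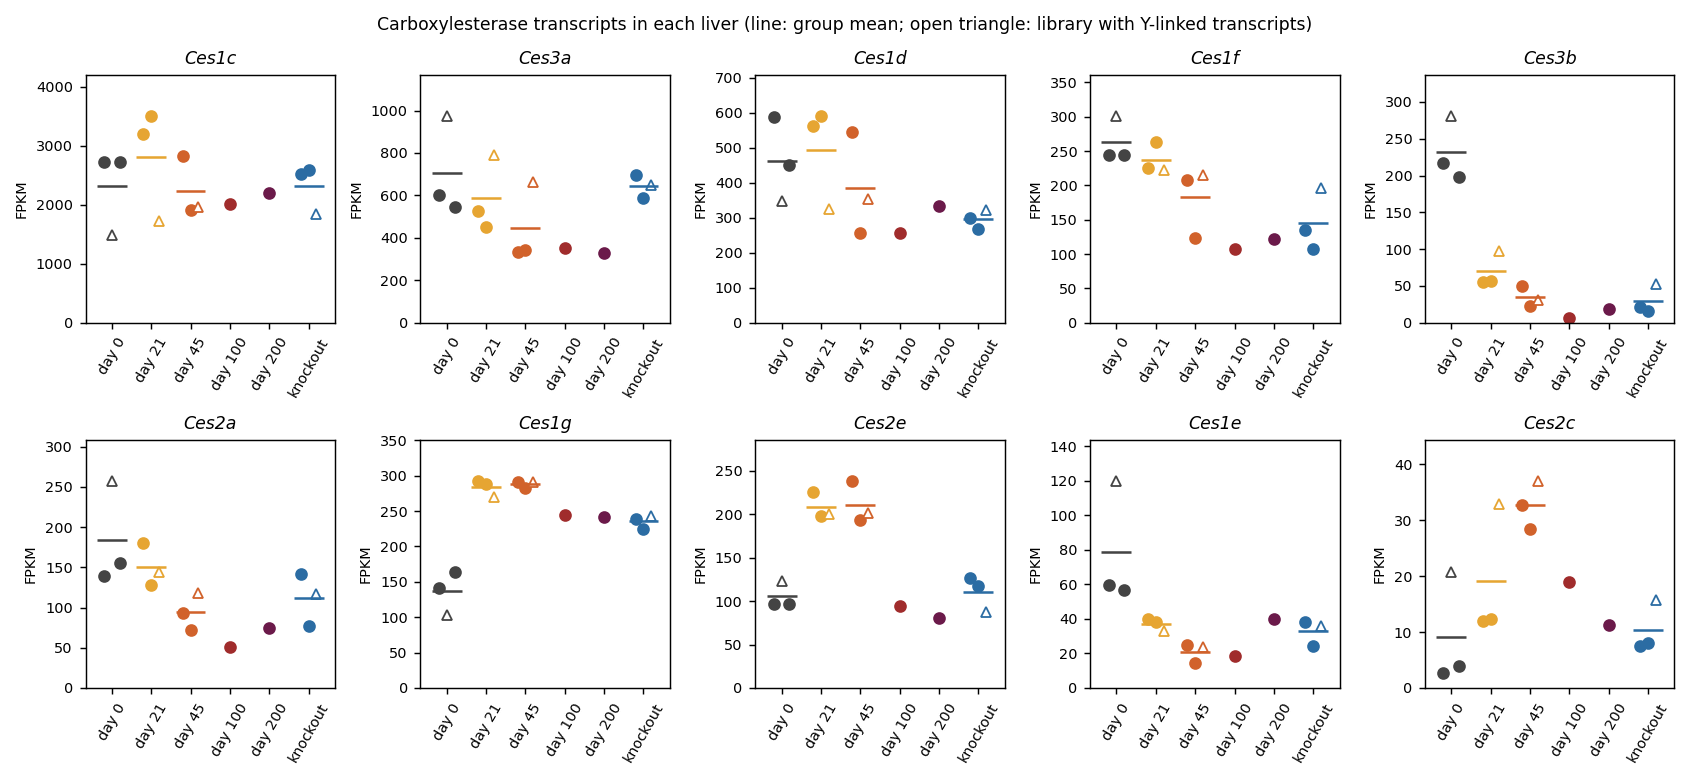
FPKM (vertical axis, linear from 0) of the 10 carboxylesterases in each of the 14 livers, by group, with a line at the mean of each group of 3 and open triangles for the 4 libraries with Y-linked transcripts. Ces3b was at most 97.3 FPKM in the 11 livers other than day 0, while Ces1g was at least 225 FPKM in all of them, and Ces2e was 193 FPKM or more in the 6 livers of days 21 and 45 and at most 127 FPKM in the others.

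**Figure D2:**
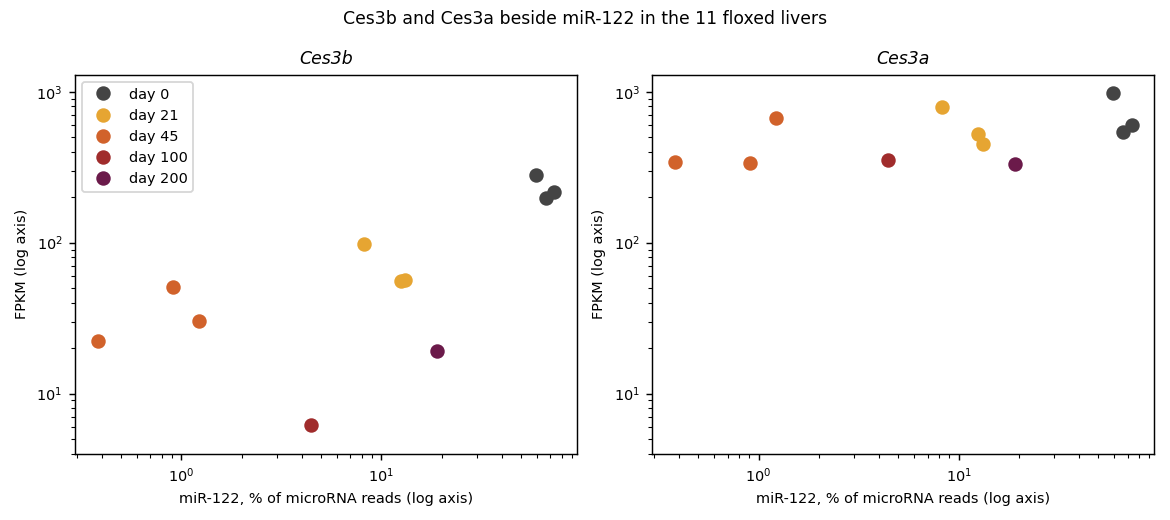
Ces3b and Ces3a (FPKM, log axis) against the share of miR-122 among microRNA reads (log axis) in the 11 floxed livers. Each point joins an RNA-seq and a small RNA library with the same day and replicate label. The day 200 liver, with 19.1% miR-122, had 19.2 FPKM of Ces3b, less than each of the 3 day 21 livers, in which miR-122 was between 8.22% and 13.2%.

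The Ces1 genes held both the most abundant member and the members that moved in opposite directions. Ces1c, the plasma carboxylesterase, was 2718, 1488 and 2728 FPKM at day 0 and made up 37.1 to 58.8% of the summed FPKM of the 10 genes there. It was 3199, 3509 and 1723 at day 21, 2833, 1909 and 1956 at day 45, 2018 and 2208 at days 100 and 200, and 2523, 2599 and 1844 in the knockout. All groups overlapped, with changes of −0.077 (95% interval −0.84 to 0.69) at days 100 and 200 and 0.044 (−0.64 to 0.73) in the knockout. Ces1d, a triacylglycerol hydrolase that supplies fatty acids for lipoprotein assembly, was 588, 347 and 451 FPKM at day 0, 563, 591 and 325 at day 21, and 545, 257 and 353 at day 45. The late livers had 256 and 333 FPKM and the knockout 298, 268 and 324, below all day 0 livers. Its changes of −0.63 (SE 0.34, limma adjusted p = 0.188) and −0.61 (SE 0.30, limma adjusted p = 0.132) did not pass the threshold, and in the libraries without Y-linked transcripts the knockout change was −0.86 (limma adjusted p = 0.0408), against −0.48 (limma adjusted p = 0.581) without knockout A and B.

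Ces1e, also called egasyn, which binds beta-glucuronidase in the endoplasmic reticulum, was 59.5, 120 and 56.5 FPKM at day 0. It was 40.1, 38.5 and 32.9 at day 21, 25.1, 14.4 and 23.5 at day 45, 18.3 and 40.0 at days 100 and 200, and 38.3, 24.5 and 36.1 in the knockout. Every other liver lay below every day 0 liver. Ces1e fell at days 100 and 200 (log2 −1.41, SE 0.38, limma adjusted p = 0.0131) and in the knockout (log2 −1.17, SE 0.34, limma adjusted p = 0.0217). Without Y-linked libraries the values were −1.07 (limma adjusted p = 0.0413) and −0.90 (limma adjusted p = 0.0574), and without the day 100 liver the first was −0.87 (limma adjusted p = 0.220). The knockout call was also lost without day 0 B, without knockout B and without knockout A and B (−1.01, limma adjusted p = 0.246), and in a fit of the compared groups alone (limma adjusted p = 0.0716). The late call was also lost with scaling to hepatocyte markers (−0.79, limma adjusted p = 0.0632).

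Ces1f, a relative of Ces1d that also acts on triacylglycerol, was 245, 301 and 245 FPKM at day 0, 226, 263 and 223 at day 21, and 208, 124 and 216 at day 45. The late livers had 108 and 122 FPKM and the knockout 134, 107 and 196. It fell in both tested comparisons, with a log2 change of −1.18 (SE 0.28, limma adjusted p = 0.00606) at days 100 and 200 and −0.89 (SE 0.25, limma adjusted p = 0.0180) in the knockout. The knockout change was −0.42 (limma adjusted p = 0.429) without knockout A and B, and the call was also lost without day 0 B or either of those livers and in a fit of the compared groups alone (limma adjusted p = 0.0756). Scaling to hepatocyte markers ended both calls, with −0.56 (limma adjusted p = 0.130) late and −0.66 (limma adjusted p = 0.119) in the knockout. The late change was −1.09 (limma adjusted p = 0.0672) without the day 100 liver.

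Ces1g, a hydrolase of liver lipid stores, went the other way. It was 142, 103 and 164 FPKM at day 0, 292, 288 and 270 at day 21, and 291, 282 and 291 at day 45. The late livers had 244 and 242 FPKM and the knockout livers 239, 225 and 242. All 11 livers lay above all day 0 livers, with little spread within any later group. It was 2.08-fold higher at day 21 and 2.11-fold at day 45 (log2 1.07 and 1.10, SE 0.16 each). It rose at days 100 and 200 (log2 0.85, SE 0.18, limma adjusted p = 0.00374) and in the knockout (log2 0.81, SE 0.16, limma adjusted p = 0.00418). The late rise missed the threshold when each library was centred on its median (log2 0.51, limma adjusted p = 0.0698), and the knockout rise without knockout A and B (log2 0.85, limma adjusted p = 0.0523) and in a fit of the compared groups alone (limma adjusted p = 0.0655). For every 100 FPKM of Ces1d there were 24.1 to 36.4 FPKM of Ces1g at day 0 and 72.5 to 95.3 in the late and knockout livers.

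The Ces2 genes, whose enzymes prefer esters with a large alcohol group and include acylglycerol hydrolases, showed 3 courses. Ces2a was 139, 257 and 156 FPKM at day 0, 180, 128 and 144 at day 21, 93.2, 72.5 and 118 at day 45, and 50.9 and 74.4 at days 100 and 200. In the knockout it was 142, 77.1 and 116 FPKM, overlapping day 0. It fell at days 100 and 200 (log2 −1.51, SE 0.33, limma adjusted p = 0.00391), and the value without the day 100 liver was −1.24 (limma adjusted p = 0.0680). In the knockout its change was −0.70 (SE 0.29, limma adjusted p = 0.0777), and −0.60 (limma adjusted p = 0.375) without knockout A and B.

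Ces2e was 96.6, 123 and 97.1 FPKM at day 0 and between 193 and 238 FPKM in the 6 livers of days 21 and 45, which is 1.97- and 2.00-fold higher (log2 0.98 and 1.0, SE 0.17 each). In the late livers it was 94.0 and 81.1 FPKM and in the knockout 127, 118 and 88.0, with changes of −0.26 (95% interval −0.68 to 0.16) and 0.063 (−0.31 to 0.44). Unlike Ces1g, Ces2e was thus raised at days 21 and 45 and near the day 0 level later, a difference between days that was not tested. For every 100 FPKM of Ces2a there were 47.8 to 69.7 FPKM of Ces2e at day 0 and 171 to 267 at day 45.

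Ces2c had the lowest day 0 level of the 10, with 2.72, 20.8 and 3.93 FPKM. It was 11.96, 12.4 and 33.0 at day 21, 32.8, 28.4 and 37.0 at day 45, 19.0 and 11.2 at days 100 and 200, and 7.55, 8.06 and 15.7 in the knockout. In each of the 4 groups of 3 the library with Y-linked transcripts was the highest, by 6.27 times the mean of the others at day 0 and by 1.21 times at day 45. Over all libraries the changes were 1.08 (SE 0.64, limma adjusted p = 0.228) at days 100 and 200 and 0.57 (SE 0.57, limma adjusted p = 0.450) in the knockout. Over the libraries without Y-linked transcripts they were 1.87 (limma adjusted p = 0.000580) and 1.04 (limma adjusted p = 0.00429), so Ces2c passed the threshold only in that setting and, at days 100 and 200, in the 3 other settings that take out day 0 B, add a term for Y-linked transcripts or scale to hepatocyte markers, and in the knockout without day 0 B.

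**Figure D3:**
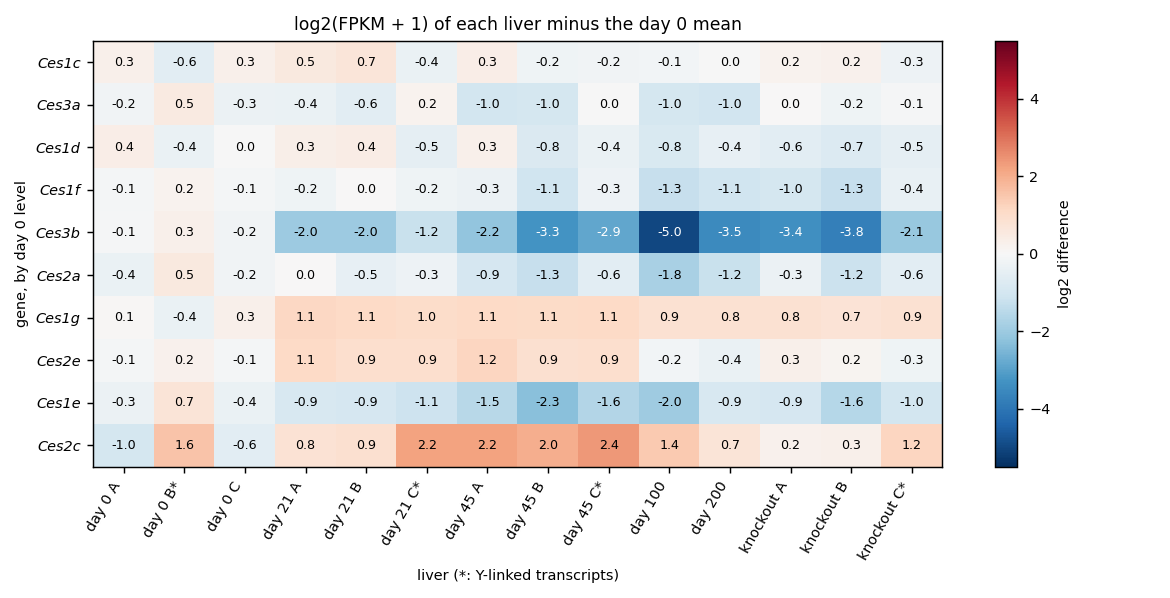
Difference of log2(FPKM + 1) of each liver from the day 0 mean (colour and printed value) for the 10 genes, ordered by their day 0 level, with an asterisk at libraries with Y-linked transcripts. In the 11 livers other than day 0, Ces3b lies between −5.01 and −1.23 and Ces1g between 0.74 and 1.12.

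At day 0 the order of the mean levels was Ces1c, Ces3a, Ces1d, Ces1f, Ces3b, Ces2a, Ces1g, Ces2e, Ces1e and Ces2c. Only Ces1c, Ces1d and Ces1e lay wholly above the gene that came next. Ces3b moved from the fifth place at day 0 to the eighth at days 21 and 45, the tenth at days 100 and 200 and the ninth in the knockout. Ces1g moved from the seventh place to the fourth in all later groups, and Ces1c, Ces3a and Ces1d kept the first 3 places throughout. The summed level of the 10 genes was 4016 to 4807 FPKM at day 0, 3838 to 5537 at day 21, 3246 to 4653 at day 45, 3165 and 3461 at days 100 and 200, and 3565 to 4227 in the knockout.

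Of the 10 members, 5 fell at days 100 and 200 (Ces3b, Ces2a, Ces1e, Ces1f and Ces3a) and 1 rose (Ces1g), where 3.21% of all tested genes fell and 28.4% rose. In the knockout 3 fell (Ces3b, Ces1e and Ces1f) and 1 rose (Ces1g), against 14.5% and 19.3% of all tested genes. The median change of the members was −0.81 at days 100 and 200 and −0.35 in the knockout, while that of all tested genes was 0.31 and 0.016. The authors' scaling bears on these splits. When each library was centred on its median, 64.3% rather than 89.8% of the genes called at days 100 and 200 were higher, and the 5 members stayed lower. In that setting 993 of all 11354 tested genes were lower. When each library was scaled to the 6 hepatocyte markers the median of all genes moved to 0.93, and 2 members (Ces3b and Ces2a) remained lower. There 43 of all 11354 tested genes were lower and 6375 higher. Without the day 100 liver 1 late liver is left, in which the changes were −3.51 for Ces3b, −1.24 for Ces2a, −1.09 for Ces1f, −1.05 for Ces3a and −0.87 for Ces1e. In the knockout, scaling to hepatocyte markers took the share of called genes that were higher from 57.2% to 83.8%, and Ces1f was no longer called (log2 −0.66, limma adjusted p = 0.119). Without knockout A and B 1 knockout liver is left, in which the changes were −2.10 for Ces3b, −1.01 for Ces1e, −0.42 for Ces1f and 0.85 for Ces1g. A single liver has no spread of its own, so that fit cannot decide which members differ. Only Ces3b was called lower in the knockout without day 0 B, without knockout B or in a fit of the compared groups alone, and in that last fit 0 members were called higher. Of all 11354 tested genes, 801, 555 and 279 were lower in these settings, against 1642 in the main fit.

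Knockout and late livers share no mice, and the rule used neither. Between them limma called 0 of the 10 members, against 17.0% of all tested genes lower and 0.793% higher in the knockout, and 3 members had an unadjusted p below 0.05. These were Ces3b (log2 1.18, SE 0.52, limma adjusted p = 0.114), Ces3a (0.92, SE 0.34, limma adjusted p = 0.0704) and Ces2a (0.81, SE 0.33, limma adjusted p = 0.0892), all higher in the knockout but not called. A single late liver moved the difference of Ces3b, which was 0.43 (limma adjusted p = 0.701) without the day 100 liver and 1.93 (limma adjusted p = 0.0855) without the day 200 liver. Of the genes called between these groups 4.5% were higher in the knockout, and 33.2% when each library was centred on its median. From the libraries without Y-linked transcripts, where the knockout is represented by A and B, 3 members differed: Ces3a was higher in the knockout by 0.91 (limma adjusted p = 0.00196) and Ces2e by 0.48 (limma adjusted p = 0.0315), and Ces2c was lower (log2 −0.83, limma adjusted p = 0.0155). In that setting 4602 of all 11354 tested genes were lower in the knockout and 1037 were higher, so a call there is common. Without knockout A and B, Ces3a was higher by 0.93 (limma adjusted p = 0.228), and Ces2e differed by 0.011 (limma adjusted p = 0.979) and Ces2c by 0.10 (limma adjusted p = 0.954). Ces3b was then higher by 2.16 (limma adjusted p = 0.0448) in knockout C, a library with Y-linked transcripts that is set against late livers without them, and in which Ces3b was 2.84 times the mean of knockout A and B. For Ces1g the difference was −0.045 with a 95% interval of −0.44 to 0.35.

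**Figure D4:**
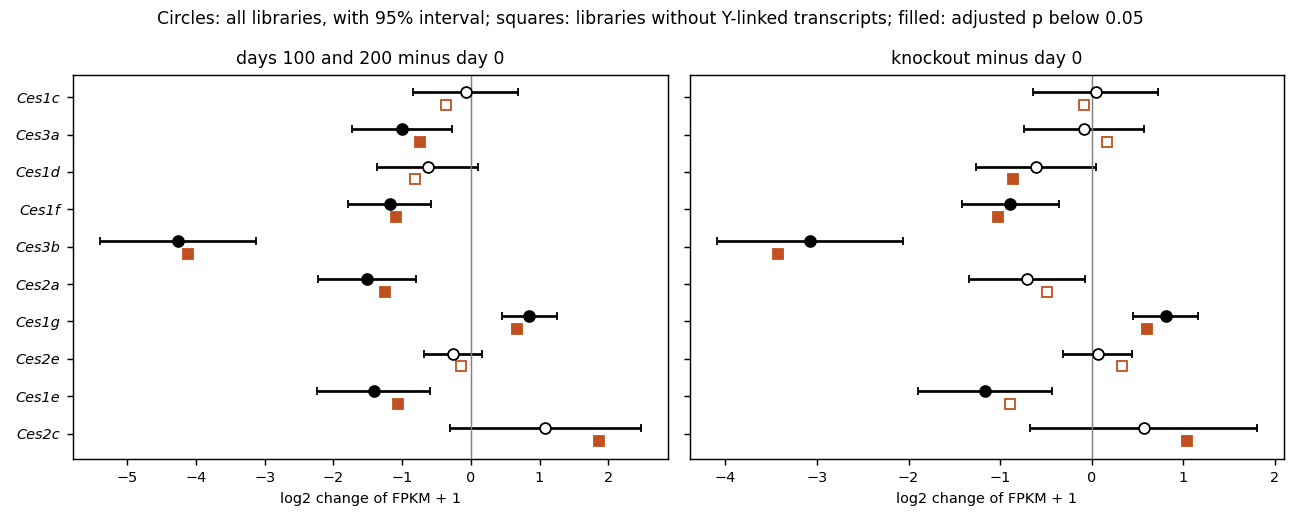
Change of log2(FPKM + 1) from day 0 at days 100 and 200 and in the knockout for the 10 genes. Circles are the fit of all libraries with 95% intervals, squares the libraries without Y-linked transcripts, and filled symbols have a limma adjusted p below 0.05. Ces3b lies farthest from 0 in both panels, and Ces3a is lower at days 100 and 200 but spans 0 in the knockout.

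Several members differed between the libraries with and without Y-linked transcripts, which is a description because the labels do not give the sex. Ces3a in the library with Y-linked transcripts was 1.71, 1.62 and 1.96 times the mean of the others in its group at days 0, 21 and 45 and 1.02 times in the knockout, and Ces3b was the highest of its group at day 0, at day 21 and in the knockout. Ces1c was the lowest of its group at day 0, at day 21 and in the knockout, at 0.547, 0.514 and 0.720 times the mean of the others. Genes known to be male-biased in liver moved with the same libraries: their summed level reached 7747 FPKM at day 0 where the lowest library had 180 FPKM, and both late livers had at most 225 FPKM. Slco1a1, a male-biased transporter, was 99.5 ± 78.5 FPKM at day 0 (SD, n = 3) and fell at day 45, at days 100 and 200 and in the knockout (limma adjusted p = 0.0261, 0.00116 and 0.00237). It was the only one called of the 8 male-biased genes, and limma called 0 of the 8 female-biased genes in the 4 comparisons with day 0 (0, 0, 0 and 1 with an unadjusted p below 0.05). In the libraries without Y-linked transcripts 3 male-biased genes were lower and 1 higher in the late livers and in the knockout alike, and 4 female-biased genes were lower in the late livers and 3 lower and 1 higher in the knockout. Of all 11354 tested genes, 645 were lower and 3854 higher there in the late livers, and 3273 and 3242 in the knockout. The knockout change of Slco1a1 was −2.81 (limma adjusted p = 0.138) without knockout A and B.

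Of the 8 other Ces symbols, 2 reached the level for testing. Ces1b was 49.3, 25.3 and 49.4 FPKM at day 0 and 16.9, 19.1 and 15.8 FPKM at day 45, a fall of log2 −1.16 (SE 0.37, limma adjusted p = 0.0373), with changes of −0.75 (limma adjusted p = 0.198) at days 100 and 200 and −0.86 (limma adjusted p = 0.0872) in the knockout. Ces2g was 20.4, 20.0 and 23.1 FPKM at day 0 and rose at day 45 by log2 0.51 (SE 0.14, limma adjusted p = 0.0186) and at days 100 and 200 (log2 0.62, SE 0.16, limma adjusted p = 0.00989), where the late livers had 32.8 and 33.5 FPKM. Ces4a, the gene just beyond Ces3b, was 0.835, 5.37 and 0.636 FPKM at day 0 and 0.296 FPKM or less in every other liver, too low on average for the test. Ces2d-ps was 3.05 and 3.13 FPKM in knockout A and B and 0.055 FPKM or less in the other 12, knockout C included. Ces1a, Ces2b and Ces2f had means of 0.207, 0.189 and 0.0016 FPKM over all livers, and Ces5a was listed at 0 throughout.

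The genes whose course over the 14 livers was most like that of Ces3b were Gcdh, an enzyme of lysine breakdown (Pearson r = 0.961 on the log2 scale), Ndufaf1 (0.945), which helps assemble respiratory complex I, the mitochondrial superoxide dismutase Sod2 (0.925), the aminotransferase Aadat (0.922) and the fatty acid importer and activator Slc27a2 (0.918). Gcdh went from 336 ± 8.72 FPKM at day 0 to 220 ± 33.9 at day 45 and 205 ± 36.5 in the knockout (SD, n = 3 each). Slc27a2 went from 683 ± 46.5 to 297 ± 76.3 and 236 ± 108 FPKM. The most opposite genes were Limk2 (−0.980), Traf7 (−0.974), Gnb1 (−0.972), Add1 (−0.972) and Plscr3 (−0.971). Traf7 went from 5.12 ± 0.159 FPKM at day 0 to 14.2 ± 1.42 at day 45. The points share libraries and scaling, and the genes were picked as the extremes of all tested genes. Of the members, Ces1f (0.881), Ces2a (0.829) and Ces1e (0.796) correlated most with Ces3b, Ces1g correlated at −0.646, and Ces3a at 0.554.

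Other genes of the same pathways were counted from lists. Among all genes, 1.42% were called lower and 6.20% higher at day 21, and 2.99% lower and 23.7% higher at day 45. With scaling to hepatocyte markers the share of calls that were higher went from 81.4% to 94.1% at day 21. At day 45 it went from 88.8% to 97.9%. With centring it was 75.5% at day 21 and 67.4% at day 45. At days 100 and 200 hepatocyte scaling called 6375 of all 11354 tested genes higher and 43 lower, and in the knockout 1757 and 339. In the libraries without Y-linked transcripts 3854 were higher and 645 lower at days 100 and 200, and 3242 and 3273 in the knockout. Of 14 tested genes of neutral lipid hydrolysis, which include the inhibitor G0s2 and the activator Abhd5, 0 rose and 1 fell at day 21 (6 with an unadjusted p below 0.05 in limma), 3 rose and 2 fell at day 45, 2 rose and 3 fell at days 100 and 200, and 3 rose and 7 fell in the knockout. The balance depended on the scaling: with centring 1 rose and 3 fell at day 45 and 1 rose and 5 fell at days 100 and 200, and with scaling to hepatocyte markers 3 rose and 0 fell at day 45, 4 rose and 1 fell at days 100 and 200, and 3 rose and 4 fell in the knockout. In the knockout 4 rose and 8 fell in the libraries without Y-linked transcripts, and limma called 0 without knockout A and B (4 with an unadjusted p below 0.05). Mgll, the monoacylglycerol lipase, was 63.5 ± 9.92 FPKM at day 0 and fell at day 45 (log2 −0.92, limma adjusted p = 0.0267), at days 100 and 200 (−1.44, limma adjusted p = 0.00367) and in the knockout (−1.17, limma adjusted p = 0.00871). Lipc, the hepatic lipase, fell at day 45 (−0.82, limma adjusted p = 0.0273) and in the knockout (−0.93, limma adjusted p = 0.0151). Lipe, the hormone-sensitive lipase, rose at day 45 (0.67, limma adjusted p = 0.0154), with 0.43 (limma adjusted p = 0.0797) in the knockout. Lipa, the lysosomal lipase, fell in the knockout (−0.76, limma adjusted p = 0.0186), with −0.54 (limma adjusted p = 0.155) at day 21. Pnpla2, the adipose triglyceride lipase, rose in the knockout (0.93, limma adjusted p = 0.0168), with 51.5, 54.5 and 25.0 FPKM in knockout A, B and C against 19.0 to 24.3 at day 0. With A and B left out the change was 0.22 for Pnpla2 and −0.30 for Lipa (limma adjusted p = 0.582 and 0.481), and −0.76 for Mgll and −0.78 for Lipc (limma adjusted p = 0.258 and 0.228). Named after their values were seen, G0s2, the inhibitor of that lipase, was the 1 gene that fell at day 21 and fell also at days 100 and 200 and in the knockout, so that the counts of hydrolases that fell are lower by this 1 gene. Lpl and Abhd12 rose at day 45, at days 100 and 200 and in the knockout, and Abhd6 fell at days 100 and 200.

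Of 10 other ester-cleaving hydrolases, limma called 0 at days 21 and 45 and at days 100 and 200 (0, 0 and 2 with an unadjusted p below 0.05) and 4 lower in the knockout. At days 100 and 200, 3 were lower with centring and 2 in the libraries without Y-linked transcripts, and in the knockout 1 was lower with scaling to hepatocyte markers, and 6 were lower and 1 higher in the libraries without Y-linked transcripts. The 4 were the paraoxonases Pon1, Pon2 and Pon3 (log2 −0.81, −0.80 and −0.98, limma adjusted p = 0.0473, 0.0225 and 0.0306) and, named after its values were seen, Lypla1. Knockout C did not share the lower level of Pon3 and Lypla1. Pon3 was 19.8 and 24.5 FPKM in knockout A and B and 64.3 in C, against 61.6 to 65.7 at day 0. Lypla1 was 6.53, 15.0 and 59.8 FPKM in A, B and C, against 58.3 to 64.9 at day 0. The changes of Pon1, Pon2, Pon3 and Lypla1 without A and B were −0.46, −0.25, 0.022 and −0.039, and limma called 0 of the list (2 with an unadjusted p below 0.05). Bche, butyrylcholinesterase, was 33.9 ± 11.7 FPKM at day 0 and 5.69, 8.26 and 33.7 FPKM in knockout A, B and C (limma adjusted p = 0.0671). Of 11 regulators of carboxylesterase genes, 1 rose at day 21 and at day 45. It was Nfe2l2, the factor of the oxidative stress response, named after its values were seen (30.6 ± 1.85 FPKM at day 0, log2 1.24 and 1.16, limma adjusted p = 0.0197 and 0.00894). None was called at days 100 and 200 (1 with an unadjusted p below 0.05 in limma), but 2 were higher there with scaling to hepatocyte markers, and 1 was higher and 1 lower in the libraries without Y-linked transcripts. Of all 11354 tested genes, 6375 were higher in the first of these settings, and 3854 were higher and 645 lower in the second. In the knockout Nr1h4, the bile acid receptor, fell (−0.99, limma adjusted p = 0.0357), where 0 regulators were lower with scaling to hepatocyte markers and 4 in the libraries without Y-linked transcripts (Nr1h4, Nr1i3, Ppara and Nfe2l2). Nr1h4 was 27.2 and 38.6 FPKM in knockout A and B but 88.9 in C, within the 86.8 to 99.0 of day 0, and its change without A and B was −0.043 (limma adjusted p = 0.941). Hnf4a, the hepatocyte factor, was 194 ± 12.6 FPKM at day 0 and 199 ± 29.5 in the knockout, and its changes lay between −0.16 and 0.16 in all 4 comparisons with day 0. The drug receptors Nr1i3 and Nr1i2 and the fatty acid receptor Ppara did not pass the test in any comparison with day 0 over all libraries.

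Of 10 partners in the endoplasmic reticulum, limma called 0 at day 21 (1 with an unadjusted p below 0.05), 1 higher and 1 lower at day 45, 2 higher at days 100 and 200, and 2 higher and 4 lower in the knockout. With centring 3 were lower at day 45 and 2 at days 100 and 200, and with scaling to hepatocyte markers 0 were lower at either time and 2 in the knockout. In the libraries without Y-linked transcripts 4 were higher and 4 lower in the knockout, where 3242 of all 11354 tested genes were higher and 3273 lower. Gusb, the beta-glucuronidase that Ces1e binds, rose at days 100 and 200 (log2 0.85, limma adjusted p = 0.00991) and in the knockout (0.54, limma adjusted p = 0.0479). Kdelr3, a receptor that returns proteins to the endoplasmic reticulum, rose at day 45, at days 100 and 200 and in the knockout (1.71, 1.96 and 1.44, limma adjusted p = 0.00301, 0.00183 and 0.00807). Kdelr1 and Kdelr2 were not called over all libraries, and both were higher in the knockout in the libraries without Y-linked transcripts (0.64 and 0.59, limma adjusted p = 0.00565 and 0.00627). The chaperone Hspa5 fell at day 45 (−0.83, limma adjusted p = 0.0194) and in the knockout (−1.76, limma adjusted p = 0.000384). From knockout C alone the change was −1.31 for Hspa5 (limma adjusted p = 0.0241), 0.11 for Gusb and 0.58 for Kdelr3 (limma adjusted p = 0.804 and 0.341). Of 10 genes of VLDL assembly, limma called 0 at days 21 and 45 (0 and 1 with an unadjusted p below 0.05), 2 lower at days 100 and 200 and 4 lower in the knockout. With centring the numbers lower were 2 at day 45 and 3 at days 100 and 200, and with scaling to hepatocyte markers 0 at both and 3 in the knockout. In the libraries without Y-linked transcripts 2 were higher and 4 lower in the knockout. Mttp, the triglyceride transfer protein, fell in both (−0.96 and −1.65, limma adjusted p = 0.0409 and 0.00210), and Apob fell in the knockout (−1.80, limma adjusted p = 0.0120). Apob was 98.2 and 117 FPKM in knockout A and B but 488 in C, within the 481 to 773 of day 0, and without A and B its change was −0.35 (limma adjusted p = 0.502) and that of Mttp −0.81 (limma adjusted p = 0.0522). Plin2, named after its values were seen, fell in both and Sar1b in the knockout. Without A and B Plin2 was −0.89 and Sar1b −0.33 there (limma adjusted p = 0.278 and 0.386). Dgat1, Dgat2 and Cideb were not called over all libraries, and Dgat1 was higher in the knockout in the libraries without Y-linked transcripts (0.53, limma adjusted p = 0.0238). Without knockout A and B, limma called Hspa5 lower in the knockout and no other gene of these 5 lists.

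**Figure D5:**
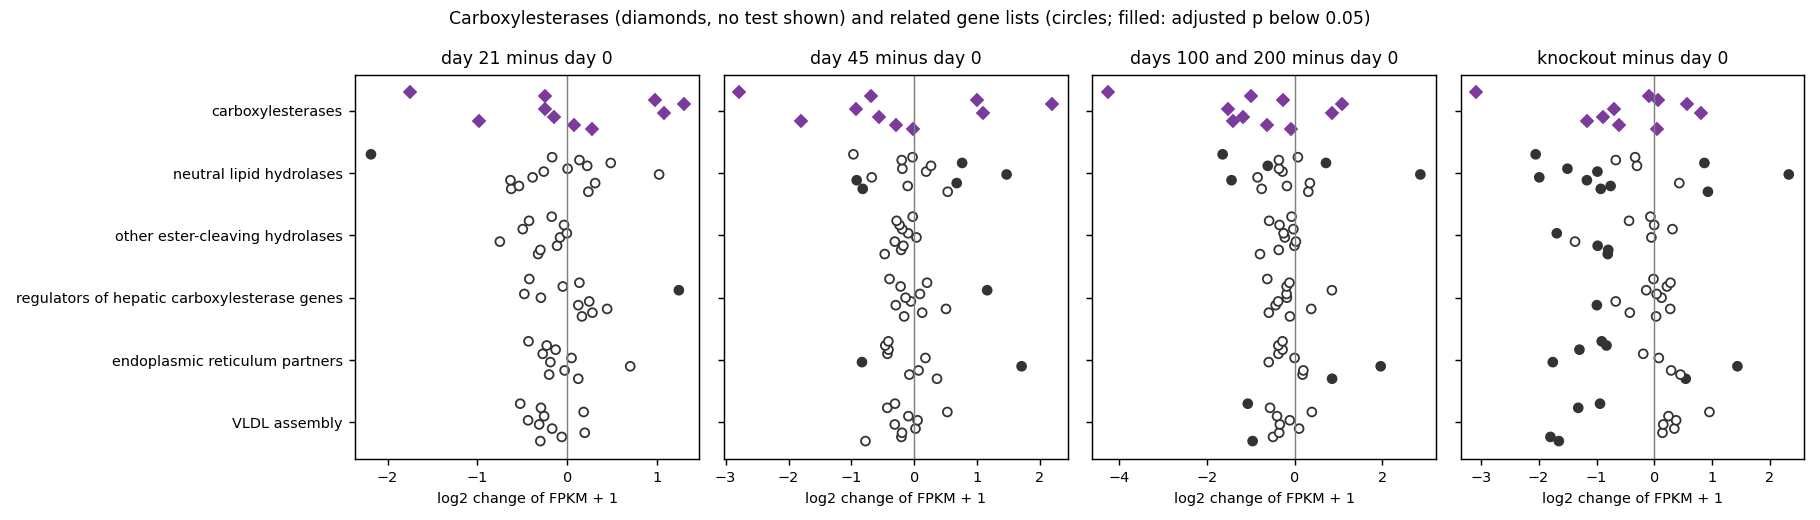
Change of log2(FPKM + 1) from day 0 (horizontal axis) in 4 comparisons for the carboxylesterases (diamonds) and for 5 lists of related genes (circles, filled where the limma adjusted p was below 0.05). At day 21, G0s2 (in the neutral lipid list) and Nfe2l2 (a regulator) are filled, and in the knockout 7 genes of the neutral lipid list, G0s2 included, are filled on the side of lower values.

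Markers of other cell types moved with the same groups. At day 21, 2 of 5 cholangiocyte markers (Epcam and Spp1), 2 of 7 macrophage, 2 of 6 endothelial and 1 of 7 stellate and fibroblast markers were higher. In the libraries without Y-linked transcripts these numbers were 0, 1, 1 and 0. All 5 cholangiocyte markers rose at day 45, at days 100 and 200 and in the knockout, and nearly all of their summed level was Spp1, which was 40.9 to 54.6 FPKM at day 0, 383 to 1259 at day 45, 2866 and 1855 at days 100 and 200, and 506 to 732 in the knockout. Krt19, a keratin of bile duct cells, was 1.01 to 2.19 FPKM at day 0, 5.78 to 17.5 at day 45, 15.0 and 19.4 late, and 3.35 to 25.4 in the knockout. All 7 macrophage markers rose at day 45, 4 at days 100 and 200 and 3 in the knockout, with sums of 225 to 408 FPKM at day 0, 799 to 897 at day 45, 832 and 1019 late, and 287 to 803 in the knockout. All 7 stellate and fibroblast markers rose at day 45 and at days 100 and 200 (sums of 18.3 to 26.6 FPKM at day 0 and 101 and 178 late), all 6 tested lymphocyte markers rose at day 21, at day 45 and late (4.10 to 9.32 FPKM at day 0 and 28.4 and 36.2 late), and 3 of 6 endothelial markers rose at day 45 and late. In the knockout 5 of 7 stellate and fibroblast markers and 3 of 6 lymphocyte markers rose, while 0 endothelial markers rose (2 with an unadjusted p below 0.05 in limma) and 1 (Lyve1) fell. When A and B were left out limma called 2 cholangiocyte markers higher in the knockout (Epcam and Spp1) and 0 of the macrophage, lymphocyte, stellate and fibroblast and endothelial markers (0, 0, 1 and 1 with an unadjusted p below 0.05). Cd68, a macrophage marker, was 31.4, 20.7 and 7.29 FPKM in knockout A, B and C against 5.63 to 10.9 at day 0, and Cd3e, of T cells, was 1.99, 1.61 and 0.379 against 0.189 to 0.307. In the libraries without Y-linked transcripts 3 rather than 6 lymphocyte markers were higher at day 21, and Lyve1 in the knockout was −0.77 (limma adjusted p = 0.0566). No marker of these lists was at 0 in any library. Of the 9 tested hepatocyte markers, 1 fell at day 45 (Apoa2), 2 fell at days 100 and 200 (Apoa1 and Apoa2, both among the 6 used for scaling) and 0 in the knockout (4 with an unadjusted p below 0.05 in limma). In the libraries without Y-linked transcripts Apoa2 and Cps1, also used for scaling, were lower in the knockout (log2 −1.04 and −1.19, limma adjusted p = 0.0307 and 0.00925). Serpina1a, also called in the knockout, was listed at 0 in all day 0 livers and is not counted as a rise. Of 12 acute phase genes, 3 rose at day 21, 7 at day 45, 6 at days 100 and 200 and 8 in the knockout, where Lcn2 was 1524 ± 859 FPKM against 10.0 ± 6.83 at day 0. Without knockout A and B 4 were higher in the knockout, Lcn2 among them (5.90, limma adjusted p = 0.00354), and in the libraries without Y-linked transcripts 1 was higher and 1 lower at day 21 and 10 were higher and 1 lower in the knockout. The part of these cells and of the acute phase in the carboxylesterase values was not tested.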

How the data were processed

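RNA-seq was done on 14 mouse livers, and 11 small RNA libraries with the same day and replicate labels were used. Whether both kinds of library came from the same mice is not stated. Per the submitters' notes and the study's methods, poly-A selected paired reads were aligned with TopHat to mm9, and the deposited FPKM values were made by the authors with Cufflinks 2.2.1, with quartile scaling and with ribosomal, small nucleolar and mitochondrial RNA removed. The deposited RPM values came from reads aligned by the authors with Bowtie 0.12.7 to miRBase, and 1 was added to every value. That 1 was subtracted before the miR-122 share was taken, and whole reads were recovered from the steps of the values.

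Rows of the same symbol were summed (224 symbols had more than 1 row). Genes whose level averaged 1 FPKM or more were fitted on log2(FPKM + 1), a pseudocount of 1, with limma 3.58.1 in R 4.3.3. A single model held 5 groups, in which the mice of days 100 and 200 formed the late group beside day 0, day 21, day 45 and knockout. All log2 changes are on that scale, which understates the change of low genes. Fold values are ratios of mean FPKM instead. P-values were adjusted by Benjamini-Hochberg over all 11354 tested genes within a comparison, with a threshold of 0.05, and they measure the spread between these mice alone. The script was tested on simulated data. No member was tested at days 21 and 45. The comparisons of days 100 and 200 and of the knockout share the day 0 mice.

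The members and gene lists were chosen with earlier results of these data known. Named genes were the members, every other Ces symbol, the first 5 of each list (all genes of lists of 8 or fewer) and the 5 genes most and least correlated with Ces3b. Alternatives were a pseudocount of 0.1, no filter, the highest row of a symbol, centring on the median, scaling to 6 hepatocyte markers above 0 in all libraries, fits of the compared groups alone, a replicate block and leaving out each library. A term for Y-linked transcripts, the libraries without them, and leaving out knockout A and B were added after seeing the data.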

Additional observations from a re-analysis of the deposited data

How the results depend on the processing

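Of the log2 changes of members under the alternatives, 659 kept their side of the threshold and their direction (or, untested, moved by less than the spread, which for small changes can include a change of sign), 25 lost a call, 13 gained one, 5 moved and 28 reversed. The reversals concerned changes that were untested or not called. With hepatocyte scaling Ces1f at day 21 was 0.057, Ces1c and Ces2e at days 100 and 200 were 0.54 and 0.36, Ces3a in the knockout was 0.14, and Ces1c, Ces1d, Ces1e, Ces1f and Ces2e between knockout and late livers were −0.27, −0.37, −0.14, −0.094 and −0.066. In the libraries without Y-linked transcripts Ces3a and Ces1c in the knockout were 0.16 and −0.089, and Ces1d between knockout and late livers was −0.046. Without knockout A and B, Ces1c and Ces2e in the knockout were −0.27 and −0.25, and Ces1c and Ces2c between knockout and late livers were −0.20 and 0.10. Ces1g in that comparison was 0.27 with centring and 0.0030 with the Y-linked term. With a library left out, Ces1c ranged from −0.37 to 0.070 at days 100 and 200, and in the knockout Ces3a ranged from −0.25 to 0.17, Ces1c from −0.25 to 0.20 and Ces2e from −0.043 to 0.22. Between knockout and late livers Ces1d ranged from −0.17 to 0.21 and Ces1e from −0.30 to 0.79. The causes of these changes were not tested. At days 100 and 200 the count of members called lower was 5, but 2 with hepatocyte scaling and 1 to 5 when a library was left out (1 without the day 100 liver), and the count called higher was 1, but 0 with centring, 2 with hepatocyte scaling, 2 with the Y-linked term, 2 in the libraries without Y-linked transcripts and 1 to 2 when a library was left out. In the knockout the count lower was 3, but 1 in a fit of the compared groups alone, 0 without knockout A and B and 1 to 3 when a library was left out, where 1 came from leaving out day 0 B or knockout B. The count higher was 1, but 0 in the fit of the compared groups, 2 in the libraries without Y-linked transcripts, 0 without knockout A and B and 1 to 2 when a library was left out. Between knockout and late livers the count was 0, but 1 with the Y-linked term, 3 in the libraries without Y-linked transcripts, 1 without knockout A and B and 0 to 1 when a library was left out (Ces2e without knockout C). Ces3b was called in 13 of 13 alternatives at days 100 and 200 (adjusted p from limma 1.04e-05 to 0.0046) and in 15 of 16 in the knockout. A group reduced to 1 liver is assumed to vary like the others. The replicate letters name separate mice: of 18 same-letter pairs 8 correlated above 0.1 (range −0.447 to 0.501) and 5 correlated best with their own letter, and with the replicate block 3 members were lower and 1 was higher in the knockout. FPKM carries no counts, so no counting interval is given for it.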
